A study of Rattus norvegicus with 6 samples.

Results

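Oxidative phosphorylation depends on proteins encoded by both the nucleus and the mitochondrial genome, and the nuclear-encoded ones are the subject here. The members were all rows of the deposited table whose symbol starts with Nduf, Uqcr, Atp5 or Cox4 to Cox8, together with Cyc1 and Cycs, leaving out pseudogene rows marked -ps and locus identifiers. This gave 97 of the 37185 rows. By role they were 42 rows for complex I, 9 for complex III, 1 for cytochrome c, 19 for complex IV, 16 for complex V and 10 for assembly factors. The rule reads symbols and no measured value, but it was set with earlier results of these data known.

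The series used primary cultures of hippocampal astrocytes and of hippocampal neurons from Rattus norvegicus, with no strain, age or genetic change given in the labels. Each cell type had an untreated control at 0 h (saline in the titles), a culture after 6 h of 200 nM insulin and a culture after 12 h, with 1 library each and 6 in all. In every group the medium was replaced 4 h before treatment, for astrocytes by one holding 5 mM glucose and 2% FBS, and for neurons by serum-free Neurobasal with 1% insulin-free B27. The insulin cultures therefore also spent longer in the new medium than the control, and the effect of that time and of insulin cannot be told apart. There are no replicates, so no test, error or p-value could be computed for any difference.

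Complex I takes electrons from NADH and complex III takes them from ubiquinol. Complex III hands them to cytochrome c, a small soluble protein that carries them to complex IV, where oxygen is reduced. The proton gradient built on the way drives ATP synthase, complex V. Neurons rely heavily on this route, while cultured astrocytes are known for high glycolysis. Cytochrome c also acts outside the chain, since its release into the cytosol starts assembly of the apoptosome. The nuclear respiratory factor NRF1 was first described as an activator of the cytochrome c gene.

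Among the members, Cycs and Ndufaf4 had the highest differences from the control in the neuron-labelled insulin libraries. Cycs is the somatic cytochrome c gene, and Ndufaf4 encodes an assembly factor of complex I. Their upstream sequences are printed because both were at least 2-fold higher in the neuron-labelled library at 6 h of insulin. Each run is the 250 bases before the RefSeq start of the gene, read 5′ to 3′ on the gene's strand from RefSeq assembly GRCr8, a later build than that of the deposited values. Cycs lies at chr4:80984768-80985017 on the minus strand and Ndufaf4 at chr5:43401545-43401794 on the plus strand. Capitals mark matches on either strand to GCATGCGC, the core of the NRF1 motif, chosen after the Cycs sequence was seen, or to the full motif, which is the core with GC before it.
Cycs: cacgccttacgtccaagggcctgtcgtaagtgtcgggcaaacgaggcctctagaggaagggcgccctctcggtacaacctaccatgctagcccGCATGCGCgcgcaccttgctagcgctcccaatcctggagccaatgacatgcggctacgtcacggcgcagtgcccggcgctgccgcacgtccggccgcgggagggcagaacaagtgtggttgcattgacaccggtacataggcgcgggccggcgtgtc
Ndufaf4: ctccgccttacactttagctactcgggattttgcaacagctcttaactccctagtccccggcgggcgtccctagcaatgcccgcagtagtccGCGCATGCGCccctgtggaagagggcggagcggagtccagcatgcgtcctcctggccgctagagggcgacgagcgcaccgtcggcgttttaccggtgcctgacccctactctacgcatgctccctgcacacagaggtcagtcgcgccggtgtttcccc

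Counted from the start of the gene, the core lies at positions -157 to -150 in Cycs and the full motif at -158 to -149 in Ndufaf4. A match is a description of the letters and does not show that a factor binds there.

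Values are FPKM, a read measure corrected for transcript length and library size, taken back from the deposited log2 values, and differences are on that log2 scale. Genes were compared where both libraries had a value and 1 or both reached 1 FPKM, and "rose" or "fell" is used only of a difference of 1 or more in size, a 2-fold change. Of the 97 members, 78 reached 1 FPKM in at least 1 library and 72 did so in all 6. The other 19 stayed below it everywhere, and 2 of these, Cox8c and Ndufb4l1, had no value in any library. The libraries had between 22891 and 25528 symbols with a value, and their depth is unknown. The insulin libraries of each cell type had more such symbols than the control, and the median difference of all genes compared was 0.09 and 0.10 in astrocytes and 0.14 and 0.14 in neurons at 6 h and 12 h. Between libraries, 5 quantiles of the log2 values differed by 0.00054 at most. At 0 h, 6 h and 12 h, 5781, 6014 and 6035 symbols reached 1 FPKM in astrocytes and 6042, 6442 and 6447 in neurons. The part of this scaling in the median differences was not tested.

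Marker genes set a limit on what the labels mean. Summed over 10 astrocyte markers, the level was 53.0 FPKM in the control labelled astrocyte and 369 FPKM in that labelled neuron. Over 5 smooth muscle and pericyte markers it was 425 and 4.52 FPKM, over 8 markers of the oligodendrocyte lineage 3.95 and 117 FPKM, and over 10 neuron markers 2.69 and 66.4 FPKM. The neuron cultures thus held glial transcripts beside neuronal ones, with Slc17a7 of excitatory neurons at 0.00241 FPKM. Over the 4 fibroblast markers found it was 66.2 and 0.0121 FPKM. The astrocyte cultures thus had contractile-cell and fibroblast transcripts beside astrocyte markers of unequal level, from Fgfr3 at 22.1 FPKM, above its 3.70 FPKM in the neuron control, and Gja1 at 11.9 FPKM to the water channel Aqp4 at 0.0985 FPKM. The smooth muscle, fibroblast and oligodendrocyte sums rested on few genes. In the astrocyte control Tagln was at 353 FPKM and Myh11 at 0.00821 FPKM, with 4 of the 5 at 1 FPKM or more. Of the 4 fibroblast markers 2 reached it, and Dcn was at 0.0665 FPKM. In the neuron control Olig1 was at 80.6 FPKM and Olig2 at 25.9 FPKM. Mog (2.21 and 1.69 FPKM) and Cspg4 (1.32 and 0.397 FPKM) were higher in the astrocyte control. The cultures are called astrocyte-labelled and neuron-labelled below. Fewer cells of one type and less RNA per cell cannot be told apart in bulk libraries.

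In the neuron-labelled cultures cytochrome c had the highest difference of the nuclear-encoded members at both times. Cycs was at 8.57 FPKM in the control, 29.5 FPKM at 6 h and 25.5 FPKM at 12 h. Both insulin libraries were above the control and above all 3 astrocyte-labelled libraries. Cycs rose by 1.78 at 6 h, a 3.44-fold change and the 21st highest of 6610 genes compared, and by 1.57 at 12 h, a 2.98-fold change and the 42nd highest of 6641. In the astrocyte-labelled cultures Cycs was at 8.87, 10.8 and 14.6 FPKM at 0 h, 6 h and 12 h. Its 12 h difference of 0.72 was below 2-fold and was the highest of any member there. Rat Cycs has processed copies elsewhere in the genome, so reads may be shared between them.

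Ndufaf4 was at 2.71 FPKM in the neuron-labelled control, 5.78 FPKM at 6 h and 5.14 FPKM at 12 h. It rose by 1.09 at 6 h and was 0.92 above the control at 12 h. Centred on the median of all genes the 6 h value was 0.96 and with log2(FPKM + 1) it was 0.87, so that its 2-fold call ended under either. In the astrocyte-labelled cultures Ndufaf4 was at 2.74, 3.12 and 3.11 FPKM. Cycs and Ndufaf4 thus started from like levels in the controls, where they differed between cell types by 0.05 and 0.01.

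**Figure D1:**
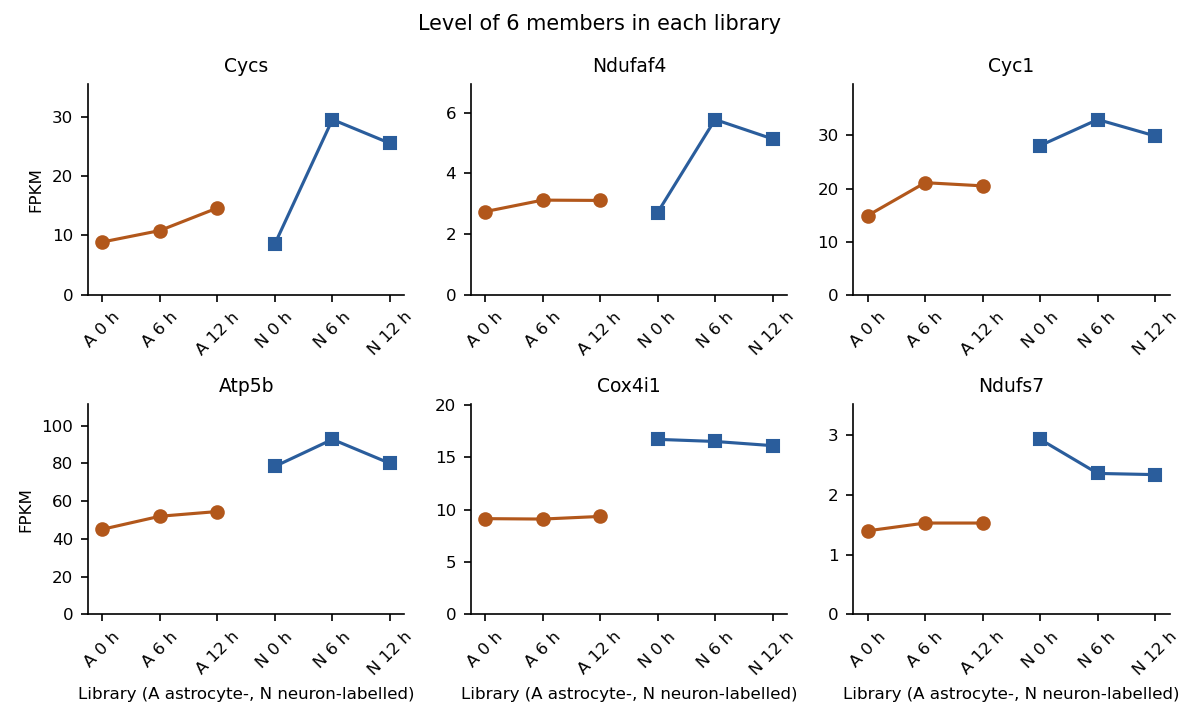
Level in FPKM (vertical axes from 0) of 6 members in each library, with 1 point per library; circles are astrocyte-labelled (A) and squares neuron-labelled (N) libraries at 0 h, 6 h and 12 h of insulin, and lines join the libraries of a cell type. Cycs goes from 8.57 to 29.5 FPKM and Ndufaf4 from 2.71 to 5.78 FPKM between N 0 h and N 6 h, while Cox4i1 stays between 16.1 and 16.7 FPKM in the N libraries.

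These were the only members to reach 2-fold in the neuron-labelled cultures. At 6 h 2 of the 78 members compared were at least 2-fold higher, against 1.60% of all genes, and 0 were lower, against 1.29%. At 12 h 1 of 78 was higher, against 2.39%, and 0 were lower, against 1.45%. A count of this size is near the background. Among all genes compared, Ndufaf4 ranked 81st highest of 6610 at 6 h and 192nd of 6641 at 12 h. The ranks of Cycs are given above. At 1.5-fold, 2 members were higher and 0 lower at 6 h, against 8.28% and 2.80% of all genes. At 12 h the counts were again 2 and 0, against 10.7% and 4.17%. The share of members at 1.5-fold was therefore below the background in both directions at both times.

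Markers of other cells also differed between the neuron-labelled libraries. The summed smooth muscle and pericyte markers were at 4.52, 6.72 and 10.6 FPKM at 0 h, 6 h and 12 h, with Tagln the only 1 of 5 at 1 FPKM or more. The summed neuron markers were at 66.4, 70.3 and 61.6 FPKM and the astrocyte markers at 369, 384 and 344 FPKM. The 5 microglia markers summed to 0.154 FPKM or less and the 4 fibroblast markers found to 0.0273 FPKM or less. The part of these cells in the Cycs and Ndufaf4 values was not tested. The level of either gene in a single cell type cannot be read from these bulk libraries.

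No nuclear-encoded subunit of the neighbouring complexes III and IV reached 2-fold. Of all genes, 1.60% were 2-fold higher and 1.29% lower at 6 h, and 2.39% and 1.45% at 12 h. Cyc1, the cytochrome c1 subunit through which complex III passes electrons to cytochrome c, was at 28.1, 33.0 and 29.9 FPKM in the neuron-labelled libraries. Cox4i1, a complex IV subunit present in most tissues, was at 16.7, 16.5 and 16.1 FPKM. Across the 9 complex III members the differences lay between -0.14 and 0.43 at 6 h and between -0.26 and 0.32 at 12 h. Across the 11 complex IV members compared they lay between -0.06 and 0.37 at 6 h and between -0.16 and 0.35 at 12 h. Within complex III, Uqcrc2 and Uqcrc1, which form its core pair, went apart. Uqcrc2 was at 2.77, 3.73 and 3.47 FPKM and Uqcrc1 at 5.49, 5.26 and 4.95 FPKM. The small subunits Uqcr10 (-0.14 and -0.26) and Uqcr11 (-0.12 and -0.17) were among the lowest members, with Cox8a (-0.16 at 12 h). The complex III median was 0.08 at 6 h, and -0.04 with a floor of 5 FPKM or without members with copy rows.

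The medians of the complexes were close to that of all genes in the neuron-labelled cultures. At 6 h they were 0.10 for complex I, 0.08 for complex III, 0.11 for complex IV and 0.13 for complex V, beside 0.14 for all genes. At 12 h they were 0.12, 0.03, 0.03 and 0.14, again beside 0.14. Over all members compared the median was 0.11 at 6 h, with 34 above and 44 below the all-gene median, and 0.06 at 12 h, with 29 above and 49 below.

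Single subunits of complex I moved both ways within a narrow range. Apart from Ndufaf4, the highest at 6 h were Ndufa1_1 (0.50), the first of 2 rows for a membrane-arm subunit, and Ndufb9 (0.44). The second row, Ndufa1_2, was below the floor and lower than the control at 6 h, at 0.413, 0.251 and 0.531 FPKM. Ndufb9 was at 6.92, 9.37 and 9.30 FPKM. At the other end was Ndufs7, a core subunit that holds an iron-sulphur cluster near the ubiquinone site, at 2.93, 2.36 and 2.34 FPKM (-0.32 at both times). It was followed by Ndufb1_2 (-0.29) and Ndufb2 (-0.27). The core subunits Ndufs1 (0.32) and Ndufv2 (0.21) were higher at 6 h while Ndufs8 (-0.03) was level with the control, so the core subunits did not share a direction. Ndufb1_1 (0.48) and Ndufa2 (0.41) were among the highest at 12 h, and Atp5sl (-0.29), an old symbol of the complex I assembly factor Dmac2, among the lowest.

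ATP synthase showed the same narrow range in the neuron-labelled cultures. Atp5b, the catalytic beta subunit and the most abundant of complex V, was at 78.4, 92.7 and 80.0 FPKM, and Atp5a1, the alpha subunit, at 43.1, 45.5 and 42.8 FPKM. The membrane subunit c, which forms the rotor ring, is made from 3 genes with different targeting sequences. In these libraries Atp5g3 was the highest of them at 29.9, 33.8 and 33.0 FPKM, followed by Atp5g1 at 9.45, 9.69 and 8.82 FPKM and Atp5g2 at 6.28, 5.97 and 5.90 FPKM. The order was stable over the 3 libraries. Atpif1, the inhibitor of ATP synthase, which is outside the members, was at 13.5, 16.5 and 19.4 FPKM.

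**Figure D2:**
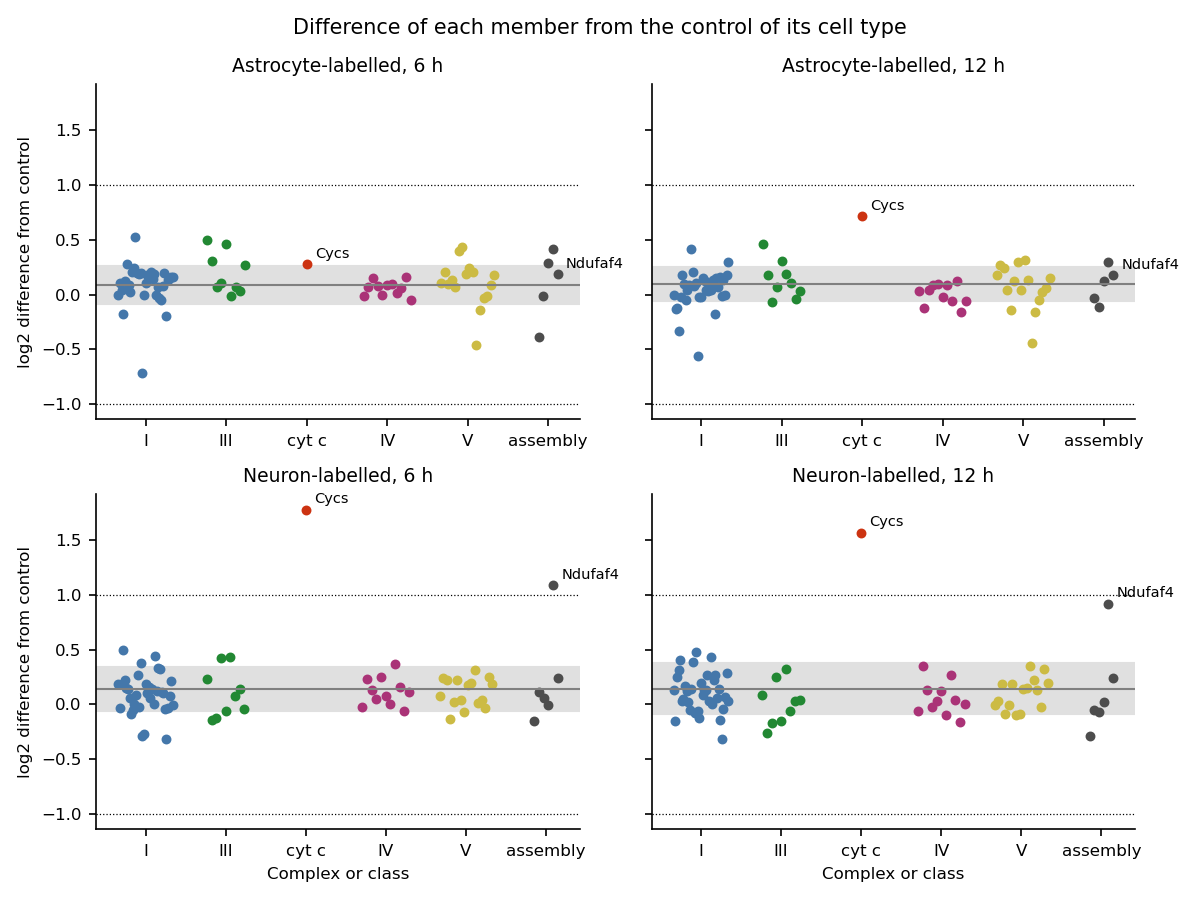
Difference from the control of the same cell type (log2, vertical axis) for each member compared, by complex or class (horizontal axis), in the 4 insulin libraries. The grey band spans the quartiles of all genes compared with their median as a line, and dotted lines mark 2-fold; Cycs (1.78 and 1.57) and Ndufaf4 (1.09 and 0.92) lie above the other members in the neuron-labelled panels.

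In the astrocyte-labelled cultures no member reached 2-fold at either time. Of the 75 members compared, 0 were higher and 0 lower at 6 h, against 1.05% and 0.886% of all genes, and 0 and 0 at 12 h, against 0.611% and 0.916%. At 1.5-fold, 0 were higher and 1 lower at 6 h, against 4.56% and 2.96%, and 1 was higher and 0 lower at 12 h, against 3.68% and 2.35%. The one lower was Ndufb1_2 and the one higher was Cycs. The median over these members was 0.11 at 6 h and 0.07 at 12 h, beside 0.09 and 0.10 for all genes, with 43 above and 32 below the all-gene median at 6 h and 31 above and 44 below at 12 h.

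The highest members there at 6 h were Ndufab1, the mitochondrial acyl carrier protein that is also a complex I subunit, and Cyc1. Ndufab1 was at 0.849, 1.23 and 1.14 FPKM, and Cyc1 at 14.9, 21.1 and 20.5 FPKM. Both insulin libraries were above the control for each of them, with differences of 0.53 and 0.42 for Ndufab1 and 0.50 and 0.46 for Cyc1. Ndufab1 entered these comparisons only through its insulin values, so its place as the highest at 6 h depends on the floor. Uqcrc1 (0.46 and 0.31), Atp5g1 (0.43 and 0.30) and the complex I assembly factor Ndufaf3 (0.42 and 0.30) came next at 6 h. At 12 h Atp5g3 (0.32) also ranked among the highest 5. Cyc1 was thus higher after insulin by 0.50 in the astrocyte-labelled cultures at 6 h and by 0.23 in the neuron-labelled ones, and whether these differ was not tested.

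The lowest members in the astrocyte-labelled cultures were mostly rows with a close copy. Ndufb1_2 was at 4.50, 2.74 and 3.06 FPKM, while Ndufb1_1, the other row of the same gene symbol, was at 1.96, 2.25 and 2.11 FPKM. The rows of this subunit therefore went opposite ways, by -0.72 and 0.20 at 6 h, and how reads were divided between them is unknown. Atp5hl1, listed as a pseudogene in RefSeq, was at 6.75, 4.92 and 4.99 FPKM, while Atp5h, the d subunit of ATP synthase, was at 5.61, 6.47 and 6.12 FPKM. Atp5sl (-0.39), Ndufs6 (-0.20) and Ndufa1_1 (-0.18) followed at 6 h, and Ndufa1_1 (-0.33), Ndufc2 (-0.18) and Atp5i (-0.16) were among the lowest at 12 h.

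By complex, the 6 h medians in the astrocyte-labelled cultures were 0.13 for complex I, 0.11 for complex III, 0.07 for complex IV and 0.12 for complex V, beside 0.09 for all genes. At 12 h they were 0.07, 0.11, 0.03 and 0.09, beside 0.10. Complex IV had the narrowest spread, from -0.05 to 0.16 at 6 h and from -0.16 to 0.12 at 12 h. Its most abundant member and the most abundant of all 97, Cox6b1, a subunit that lies at the contact of the complex IV dimer, was at 139, 140 and 149 FPKM. In these cultures Atp5b was at 45.1, 52.0 and 54.5 FPKM, and Cox4i1 at 9.14, 9.10 and 9.35 FPKM.

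The insulin libraries of one cell type can be set against each other without the control. In the astrocyte-labelled pair 0 of 75 members were 2-fold higher at 12 h than at 6 h and 0 were lower, against 0.256% and 0.511% of all genes, with differences from -0.32 (Cox8a) to 0.44 (Cycs). In the neuron-labelled pair 0 of 78 were higher and 0 lower, against 0.555% and 0.510%, with differences from -0.22 (Cox6b1) to 0.23 (Ndufb1_2). Cycs thus differed by 0.44 between 12 h and 6 h in the astrocyte-labelled pair and by -0.21 in the neuron-labelled pair. The medians over members were -0.04 and -0.03.

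The largest shift across the members lay between the control libraries and not between insulin and control. Of 78 members compared, 70 were lower in the astrocyte-labelled control, beside 3867 of the 7146 genes compared. Among these, Ndufaf7, Ndufa9, Ndufv2 and Ndufab1 entered only through the neuron-labelled control, so they could only be counted as lower. None was 2-fold higher there, against 18.7% of all genes, and 12 were 2-fold lower, against 21.9%. At 1.5-fold, 0 were higher, against 27.2%, and 38 were lower, against 32.3%. The count of lower members was below the background at 2-fold and above it at 1.5-fold, a broad shift of moderate size. The median over members was -0.56, beside -0.10 for all genes compared.

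The difference between the controls was in the same direction in each complex. The median was -0.53 for complex I, -0.72 for complex III, -0.82 for complex IV and -0.61 for complex V. All 9 members of complex III and all 11 of complex IV compared were lower in the astrocyte-labelled control, as were 15 of 16 in complex V and 31 of 35 in complex I. Of all genes compared, 3867 of 7146 were lower there. Cox8a, a small complex IV subunit, had 20.5 FPKM in astrocyte-labelled and 46.9 FPKM in neuron-labelled cultures before insulin. Atp5a1 was at 18.6 and 43.1 FPKM. Ndufv1, the core subunit that binds NADH, was at 6.33 and 13.8 FPKM, and the accessory subunit Ndufa8 at 1.36 and 3.08 FPKM.

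The 12 members 2-fold lower in the astrocyte-labelled control came from all 4 complexes. They were Ndufaf7 (-1.37), a methyltransferase that acts in complex I assembly, Atp5a1 (-1.21), Cox8a (-1.20), Ndufa8 (-1.18), Ndufv1 (-1.12), Ndufa10l1, Atp5g1, Cox7a2l2, Ndufa4, Ndufs7, Uqcrc1 and Ndufb11 (-1.01). Ndufaf7 was at 0.513 FPKM in the astrocyte-labelled and 1.33 FPKM in the neuron-labelled control, and entered only through the latter. Ndufa4, which bears a complex I name but is a subunit of complex IV, was at 5.56 and 11.7 FPKM. With log2(FPKM + 1), or centred on the median of all genes, 5 members were 2-fold lower.

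Only 8 members were higher in the astrocyte-labelled control, beside 3279 of the 7146 genes compared, and none of these members by 2-fold. The highest were Atp5sl (0.50), Ndufb1_2 (0.38), Ndufa7 (0.30), Ndufb1_1 (0.28) and Atp5hl1 (0.23), followed by Ndufa2 (0.14), Cycs (0.05) and Ndufaf4 (0.01). The Cycs and Ndufaf4 values here and their differences after insulin share the neuron-labelled control library, so they are not separate observations. The marker sums of the controls differ as given above, and the part of the cell mixtures in the offset was not tested.

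**Figure D3:**
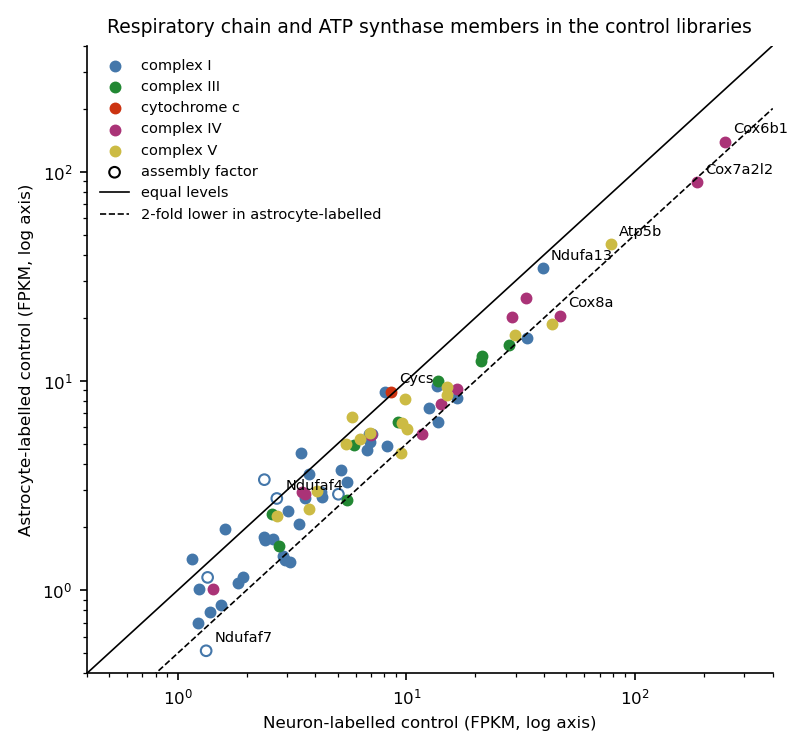
Level of each of the 78 members compared in the neuron-labelled control (horizontal, FPKM, log axis) and the astrocyte-labelled control (vertical, FPKM, log axis), coloured by complex, with open circles for assembly factors. The solid line marks equal levels and the dashed line 2-fold lower in the astrocyte-labelled control; most points lie between the lines, and Cycs (8.57 and 8.87 FPKM) lies on the solid one.

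Although the members differed in level by orders of magnitude, their ranking was shared by all libraries. Among the 72 members at 1 FPKM or more in all 6 libraries, Pearson's r of log2 values was 0.969 between the controls and between 0.984 and 0.992 between each insulin library and its control. These are correlations across genes of libraries put on shared quantiles, and are given as a description. Per length, Cox6b1 was at 247 FPKM in the neuron-labelled control while Cox5a, a nuclear subunit of the same complex, was at 1.42 FPKM. In complex I the highest was Ndufa13, also known as GRIM-19, at 39.4 FPKM, while Ndufs4, needed for a late step of assembly, was at 0.339 FPKM. Subunits that enter a complex in equal number thus had very unequal transcript values, and reads lost to or gained from gene copies are part of such values to an unknown extent.

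Gene copies set limits on several rows. Ndufa10 was at 0.0176 FPKM or less in all libraries, whereas Ndufa10l1, which RefSeq lists with the synonym Ndufa10, was at 16.0, 15.9 and 16.0 FPKM in the astrocyte-labelled and 33.7, 38.6 and 36.9 FPKM in the neuron-labelled libraries. Cox7a2 was at 0.108 FPKM or less and was blank in the neuron-labelled 6 h library, whereas Cox7a2l2, named as a like gene, was at 89.0, 95.4 and 95.0 FPKM and at 187, 188 and 175 FPKM. Uqcrb, a complex III subunit, had 2.30 FPKM in the astrocyte-labelled control, and the row Uqcrb-ps1, left out by the rule, was at 22.8 FPKM there and at 22.8 to 32.9 FPKM over the 6 libraries. The values of such gene pairs are uncertain, since the division of reads between them is not known.

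Isoforms known from other tissues stayed low. The lung and hypoxia isoform Cox4i2 was at 0.0498, 0.143 and 0.106 FPKM in the astrocyte-labelled libraries and at 0.0100 FPKM or less in the neuron-labelled ones, against at least 9.10 FPKM of Cox4i1. The muscle isoform Cox6a2 had no value in the astrocyte-labelled libraries and was at 0.339, 0.302 and 0.219 FPKM in the neuron-labelled ones, against at least 24.8 FPKM of Cox6a1. Cox6b2 and Cox7b2, known from testis, were at 0.777 FPKM or less, and the muscle isoform Cox8b at 0.0704 FPKM or less. Ndufa4l2, a hypoxia-induced relative of Ndufa4, was at 0.0842, 0.143 and 0.230 FPKM and at 0.345, 0.477 and 0.494 FPKM. All of these were below 1 FPKM and entered no comparison.

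**Figure D4:**
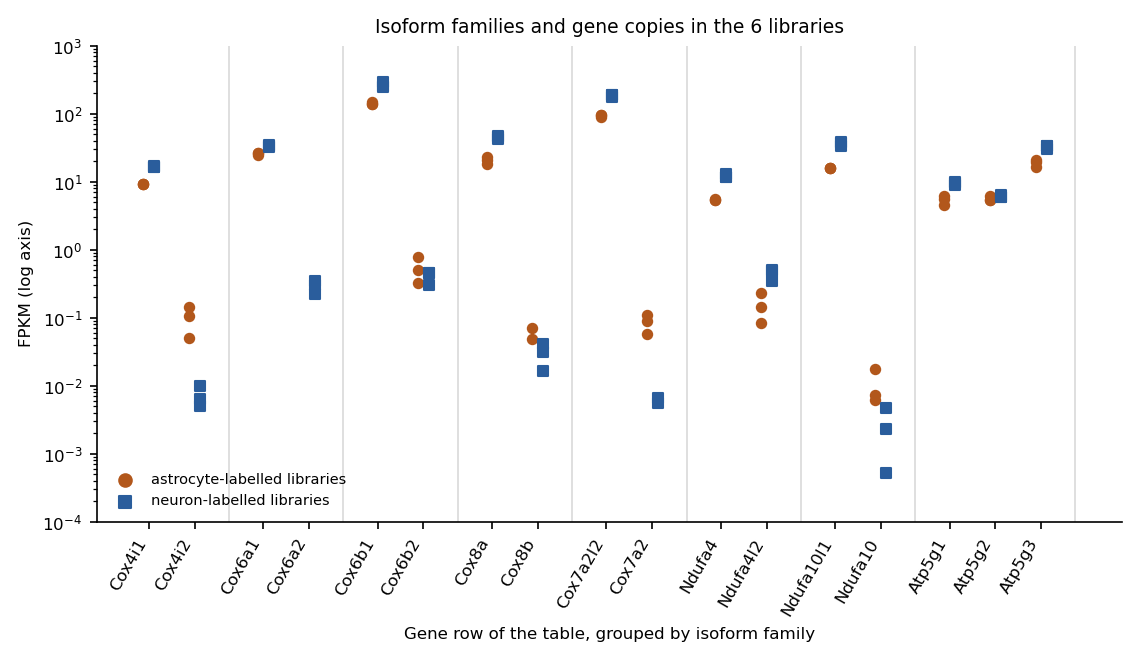
Level (FPKM, log axis) of isoform families and like-named gene copies in each library, with circles for the 3 astrocyte-labelled and squares for the 3 neuron-labelled libraries; libraries with no value have no point. In each of the 7 pairs plotted, from Cox4i1 and Cox4i2 to Ndufa10l1 and Ndufa10, 1 row is above 5 FPKM in all libraries and the other below 1 FPKM, while the 3 subunit c genes are all above 1 FPKM.

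Assembly factors were low and, Ndufaf4 apart, none of those compared reached 2-fold after insulin. Of all genes, 0.611% to 2.39% were 2-fold higher and 0.886% to 1.45% lower, so this count is near the background. Of the 10 among the members, 4 (Ndufaf2, Ndufaf5, Ndufaf6 and Atp5s) were below 1 FPKM in all libraries. Ndufaf1 was at 1.15, 1.41 and 1.24 FPKM in the astrocyte-labelled and 1.35, 1.41 and 1.29 FPKM in the neuron-labelled libraries. Cox7a2l, which joins complexes III and IV into supercomplexes, was at 5.51, 5.47 and 5.11 FPKM and at 7.02, 7.59 and 6.76 FPKM. The neuron-labelled median of the 6 compared was 0.08 at 6 h and -0.02 at 12 h. In the astrocyte-labelled cultures the 5 compared lay between -0.39 (Atp5sl) and 0.42 (Ndufaf3) at 6 h. Their median of 0.19 became 0.30 with no floor and -0.01 with a floor of 5 FPKM, which left 1 factor.

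Further genes of the pathway were taken from lists chosen with earlier results known. Of the 5 measured of 8 complex II genes, none reached 2-fold after insulin. Of all genes, 0.611% to 2.39% were 2-fold higher and 0.886% to 1.45% lower, so this count is near the background. The complex II medians were 0.08 and 0.05 in astrocyte-labelled and 0.15 and 0.00 in neuron-labelled cultures. Of 28 assembly factors of complexes III to V under other symbols, 12 were compared in the neuron-labelled cultures and 1 fell at each time, against 1.29% and 1.45% of all genes. This was Surf1, a complex IV assembly factor, at 1.61, 0.638 and 0.412 FPKM, by 1.33 at 6 h and 1.96 at 12 h. Surf1 entered the comparison in these cultures only through its control value, and both insulin values were below 1 FPKM. In the astrocyte-labelled libraries Surf1 was at 0.179, 0.178 and 0.392 FPKM.

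Of 7 carriers that serve ATP synthase, none reached 2-fold after insulin. Over the insulin libraries, 0.611% to 2.39% of all genes were 2-fold higher than the control and 0.886% to 1.45% lower. A count of none among so few genes is near that background. In the neuron-labelled cultures 5 were above the all-gene median at each time, with medians of 0.29 and 0.34, and in the astrocyte-labelled ones 4 at 6 h and 6 at 12 h, with medians of 0.10 and 0.30. Slc25a4, an ADP/ATP carrier, was at 85.7, 121 and 115 FPKM, and Slc25a5, another, at 28.7, 42.1 and 36.4 FPKM in the neuron-labelled libraries. Slc25a6 (-0.21 and -0.23) was lower than the control there, as was the phosphate carrier Slc25a3 at 12 h (-0.16). Among 12 regulators of respiratory chain transcription, none reached 2-fold after insulin where compared, which is again near the background. In the neuron-labelled cultures 6 were compared. At 6 h 4 were above the control and 2 below, Polrmt (-0.29) and Esrra (-0.16), beside 4499 of 6610 genes above. At 12 h 5 were above and 1 below, beside 4388 of 6641 genes above. Set against the all-gene median, 3 were above and 3 below at 6 h, and 4 and 2 at 12 h. Gabpa, a subunit of the factor also called NRF2, was at 0.765, 1.27 and 1.24 FPKM in the neuron-labelled libraries, and Pprc1, a PGC-1 family coactivator, at 0.847, 1.32 and 1.42 FPKM. Both entered the comparison there only through their insulin values. Nrf1 itself was at 0.138, 0.215 and 0.208 FPKM, below the level that entered a comparison.

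The upstream windows of the members were searched for motifs of known regulators, on both strands, in the 300 bases from 250 before to 50 after each start. Windows were found for 80 member genes, 65 of them at 1 FPKM or more in a library. The full NRF1 motif occurred in 5 of these 65 (7.69%), against 2.21% of 4745 genes of the table at that level and 0.932% of all 27457 windows. The core GCATGCGC, which lies within it, occurred in 9 of 65 (13.8%), against 5.42% and 2.66%. This core was chosen after the Cycs sequence was seen and Cycs is among the 9, so its share is not an independent count. The ETS motif CCGGAAG, read by GABPA, occurred in 18 of 65 (27.7%), against 19.4% and 9.22%.

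The members that carry the NRF1 letters differed widely in these libraries. The 9 members with GCATGCGC were Cycs, Ndufaf4, Atp5g2, Atp5i, Atp5l, Atp5o, Ndufa6, Ndufa11 and Uqcrc1. Without Cycs and Ndufaf4, their differences in the neuron-labelled cultures lay between -0.07 (Atp5g2) and 0.25 (Atp5l) at 6 h and between -0.15 and 0.32 at 12 h. The cyclic AMP element TGACGTCA occurred in 2 of 65 (3.08%), against 3.86% and 1.91%, the E-box CACGTG in 7 (10.8%), against 9.69% and 6.65%, and the FoxO letters TGTTTAC in 2 (3.08%), against 2.07% and 3.76%. The median GC content of the 250 upstream bases was 56.4% for these members and 60.8% for the 4745 genes.

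The 13 subunits encoded by the mitochondrial genome had medians further from 0 than the nuclear-encoded ones. In the astrocyte-labelled cultures their median was -0.99 at 6 h, with 5 at least 2-fold lower, against 0.886% of all genes, and -0.36 at 12 h, with 0 lower, against 0.916%. The exceptions there were ND3 at 6 h (0.10) and COX1 at 12 h (0.56). In the neuron-labelled cultures the medians were 0.47 and 0.46, and 1 of the 13 was 2-fold higher at each time, against 1.60% and 2.39%. The nuclear-encoded members compared had medians of 0.11 and 0.07 and of 0.11 and 0.06. Whether the nuclear and mitochondrial genes differ was not tested.

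The gene at 2-fold in the neuron-labelled cultures was COX1, the catalytic subunit of complex IV, at 1966, 6413 and 4310 FPKM. It rose by 1.71 at 6 h and 1.13 at 12 h. In the astrocyte-labelled cultures COX1 was at 2648, 1948 and 3914 FPKM, lower than the control at 6 h and higher at 12 h. Summed, the mitochondrial genes were at 5315, 3599 and 6016 FPKM in the astrocyte-labelled and at 9699, 17434 and 15142 FPKM in the neuron-labelled libraries, so the astrocyte-labelled sum at 12 h was above its control while the median was below 0. The sum over nuclear-encoded members was 736, 788 and 785 FPKM in the astrocyte-labelled and 1230, 1364 and 1274 FPKM in the neuron-labelled libraries.

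The other mitochondrial subunits of complex IV were lower than the control in both astrocyte-labelled insulin libraries, by less than 2-fold. COX2, which accepts electrons from cytochrome c, was at 507, 304 and 447 FPKM there and at 1305, 2217 and 1847 FPKM in the neuron-labelled libraries. COX3 was at 762, 424 and 549 FPKM and at 1475, 2611 and 2614 FPKM. Nuclear-encoded Cox5b of the same complex was at 7.73, 8.57 and 7.97 FPKM and at 14.1, 15.5 and 15.4 FPKM. Among the complex I genes in the astrocyte-labelled cultures, ND5 had the lowest 6 h difference (-1.31), at 108, 43.5 and 69.6 FPKM, and ND3 the highest, at 416, 445 and 374 FPKM.

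Markers also differed between the astrocyte-labelled libraries. At 0 h, 6 h and 12 h the summed neuron markers were at 2.69, 4.8 and 3 FPKM, the astrocyte markers at 53.0, 59.7 and 60.4 FPKM and the microglia markers at 4.13, 6.49 and 4.86 FPKM, nearly all of it Tmem119. The smooth muscle and pericyte markers were at 425, 438 and 504 FPKM and the fibroblast markers at 66.2, 67.4 and 85.8 FPKM. Gfap was at 6.23, 12.4 and 8.45 FPKM. The part of these cells in the values of the nuclear and mitochondrial genes was not tested.

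**Figure D5:**
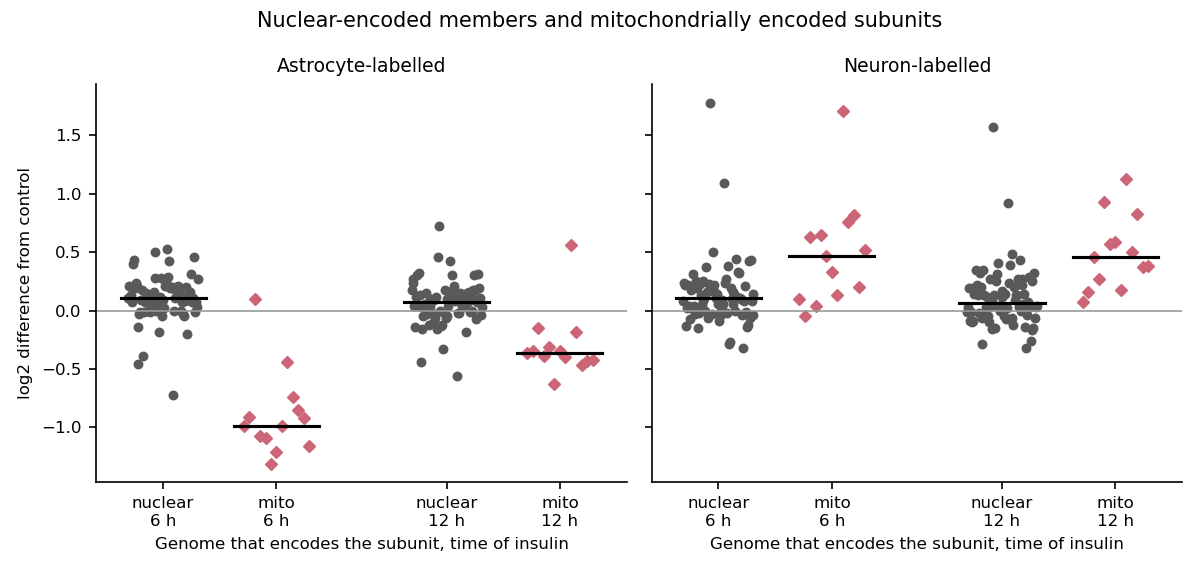
Difference from the control (log2, vertical axis) of nuclear-encoded members compared (circles) and of the 13 mitochondrially encoded subunits (diamonds) at 6 h and 12 h, by cell type, with medians as bars. The mitochondrial medians lie at -0.99 and -0.36 in astrocyte-labelled and at 0.47 and 0.46 in neuron-labelled libraries, and the nuclear ones between 0.06 and 0.11.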

How the data were processed

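The authors deposited 1 table of log2 FPKM, quantile-normalised over the 6 libraries, per the file headers and name. Base 2 was settled from the values: as a natural log the 45S pre-rRNA row Rn45s alone would exceed the library total. Per the labels' protocols, a stranded kit was used on total RNA depleted of ribosomal RNA. Partek 6.5, bcl2fastq 2.17.1.14 and build Rnor 6.0 are named in the submitters' processing notes. Aligner and annotation: not given in the sources used here. Depth is unknown. For 2 repeated symbols only the row of higher mean was used, and blank cells had no value. With 1 library per group no test was made. Differences, counts and medians were computed with Python 3.11.15, pandas 2.3.3 and numpy 2.4.6 and checked on simulated data. Named genes were the 5 highest and 5 lowest members of each comparison (between 12 h and 6 h, the extremes only), those at 2-fold, the most abundant of each complex and the isoform pairs, and any member could be named. Of the other lists, genes at 2-fold and up to 4 of the largest differences were named; COX2, COX3, ND3, ND5, Nrf1 and the single marker genes were added for their roles after their values were seen. For the promoter search, 96 members matched RefSeq names, 75 under the same symbol. The members and lists were chosen with earlier results of these data known. Alternatives were other floors, log2(FPKM + 1), centring, a 1.5-fold threshold and subsets of members.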

Additional observations from a re-analysis of the deposited data

Results flagged for a closer look

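The median of the mitochondrially encoded subunits lay on opposite sides of 0 in the cell types, although ND3 at 6 h and COX1 at 12 h were above the control in the astrocyte-labelled libraries too. This median difference from the control was -0.99 and -0.36 in the astrocyte-labelled libraries at 6 h and 12 h and 0.47 and 0.46 in the neuron-labelled ones. The mean of the neuron-labelled values was 1.14 above that of the astrocyte-labelled values, and this difference was not tested. The row Atp5hl1, listed as a pseudogene in RefSeq, was also lower than its control in both astrocyte-labelled insulin libraries (-0.46 and -0.44) and higher in both neuron-labelled ones (0.31 and 0.35). The means lay 0.78 apart, which was not tested either.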

How the results depend on the processing

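No paired analysis was possible because each group had 1 library. The alternatives gave 479 values for 70 results. A reversal was defined as a change of sign in a median or single-gene difference of 2-fold or more, and none occurred. Among these results only the neuron differences of Cycs and of Ndufaf4 at 6 h were of that size. The absence of reversals therefore says nothing of the other results. With no floor, 2 members were higher and 1 lower in astrocytes at 6 h and likewise 2 and 1 at 12 h, 3 were lower between astrocyte 12 h and 6 h, in neurons 3 were higher at 6 h against 1 lower, and 1 at 12 h against 2, 1 was higher and 2 lower between neuron 12 h and 6 h, and 3 were higher and 14 lower in the astrocyte control; this setting adds members below 1 FPKM. At 1.5-fold, 1 was lower in astrocytes at 6 h, 1 higher at 12 h, 2 higher in neurons at 12 h and 38 lower in the astrocyte control. In neurons at 6 h, 1 member was 2-fold higher with log2(FPKM + 1) and with either centring, and between controls 5 were lower with log2(FPKM + 1) or centred on all genes. Centred on all genes, the member median was -0.03 in astrocytes at 12 h, -0.03 in neurons at 6 h and -0.08 at 12 h. Centred on genes at 5 FPKM or more it was -0.02 and -0.08 in neurons. Between controls it was -0.72 with a floor of 5 FPKM and -0.45 with log2(FPKM + 1) or centred on all genes. Of 329 medians under an alternative, 39 changed sign, 29 of them under centring, all from a size of 0.19 or less. The median between controls stayed negative under every alternative run. Without replicates and depth, the error of a single library is unknown.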
